A study of Citrullus lanatus with 12 samples.

Results

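Of 23440 watermelon (Citrullus lanatus) genes measured in whole anthers, 31 had their higher levels at both ends of pollen development, the tetrad and mature stages, and their lower levels at the mononuclear stage and the dikaryophase between them. The RNA came from 12 libraries, 3 at each of the tetrad, mononuclear, dikaryophase and mature stages, all from greenhouse-grown progeny of the variety Xinteda Zhengkang 9. No treatment, mutation or transgene was part of the design, and the labels give neither the age of the plants nor whether the libraries of a stage came from different plants. The spread between libraries given below may therefore be technical. Anthers were staged by microscopy on a part of the tissue, and the remainder gave the RNA. Genes are given by ID. No table of gene names was used here, so no role is stated for any of them, and the anther label was not checked against marker genes.

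As background, pollen forms inside the anther from the products of meiosis. At the tetrad stage these are still enclosed together in a callose wall, and the surrounding tapetum, the innermost layer of the anther wall, is secreting enzymes and pollen wall material. Once released, each microspore has a single nucleus and enlarges, then divides unequally into a large vegetative cell and a small generative cell, while the tapetum breaks down. Mature grains are stocked with stored RNA and reserves for the growth of the pollen tube. A whole anther also holds epidermis, endothecium and vascular tissue, so fewer cells of a type and less RNA per cell cannot be told apart in these samples.

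The 31 genes were chosen by their measured values. The deposited value of a gene is the log2 of its normalised reads plus 1, averaged here over the 3 libraries of a stage. A member had a stage mean of at least 7 in tetrad or mature anthers, end means less than 1.5 apart and middle means less than 1 apart. Its lower end mean lay at least 0.75 above its higher middle mean, a difference called the dip below. Because the rule reads the means of all 4 stages, differences between stages are given for the members as descriptions. No p-value is given for any of them, and counts of members called by the fit over all genes stand beside the share of all genes called. In most members mononuclear replicate 2 lay above its stage mean, and dikaryophase replicate 3 and mature replicate 3 lay below theirs. The main counts are also given without these 3 libraries. They were not the only ones, since mature replicate 1, for example, lay above its stage mean in most members.

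Dips of this size were rare. Of 16510 genes with the required level, 14093 also met the limits on the ends and on the middle stages. The median dip of these was -0.23, 2264 had a dip above 0, 328 had at least 0.25, 83 had at least 0.5, and the 31 members made up 0.22%. Another 17 genes had the level and the dip but were left out. In 7 of the 48 genes with both, the ends were too far apart, in 11 the middle stages were, and 1 gene failed on both counts. The opposite shape, with both middle means above both end means under the same limits, was shown by 138 genes. Just inside the limit were Cla017016, Cla015571 and Cla014245, with dips of 0.76, 0.77 and 0.78. Just outside it were Cla015463, Cla013627 and Cla013611, with 0.74, 0.71 and 0.69, so the edge of the group is a line drawn through a continuous range.

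**Figure D1:**
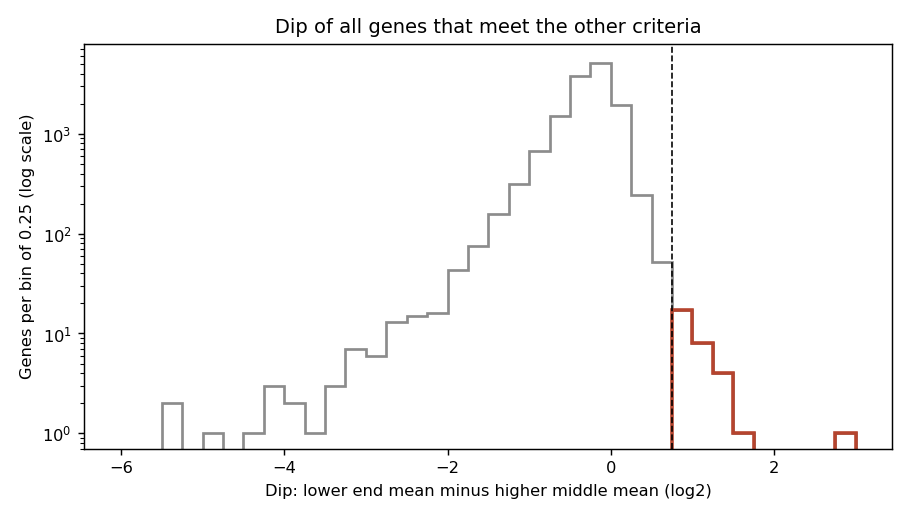
Number of genes (log scale) by dip, in bins of 0.25 on the log2 scale, among the 14093 genes that meet the criteria on level, ends and middle; the dashed line is the limit of 0.75. The 31 members (red) form the far right tail, and 1 gene lies apart beyond 2.75.

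Most members changed moderately. The dip ran from 0.76 to 2.93 with a median of 0.87, and 14 of the 31 had a dip of at least 1. Mean normalised reads over the 6 end libraries were 1.77 to 5.44 times those over the 6 middle libraries, with a median of 2.70. Cla008700 had the widest dip, 2.93, and the next, Cla002788, had 1.65. In the plot of all members by library, the middle libraries form a mostly blue block. In 16 members at least 1 middle library lay above the gene's mean over the 12 libraries. The excess was largest in Cla015218 (4 of the 6 middle libraries, by up to 3.11 on the log2 scale), Cla000760 (2 libraries, 1.70), Cla023035 (1 library, 1.34), Cla008700 (2 libraries, 1.08) and Cla015680 (1 library, 0.46), and was 0.29 or less in the others.

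**Figure D2:**
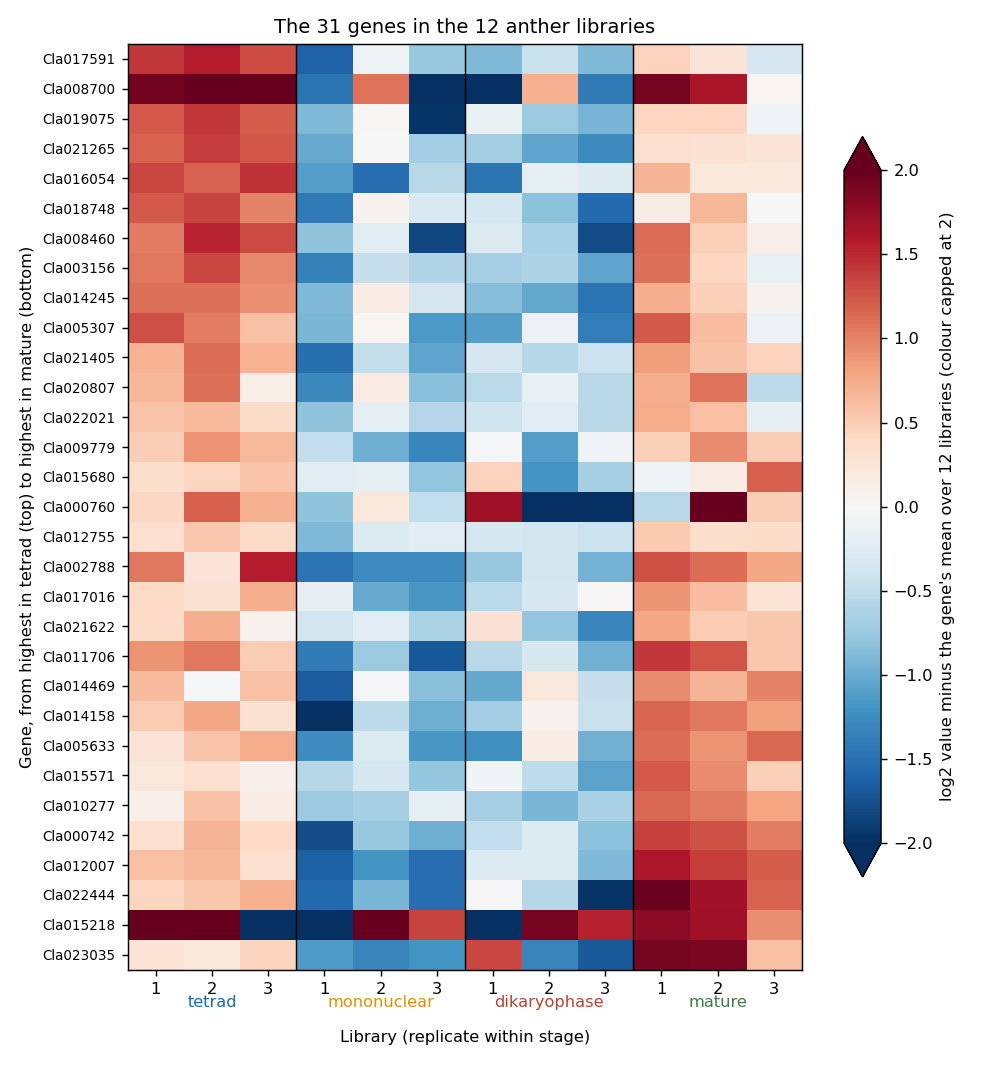
Each of the 31 genes (rows) in each of the 12 libraries (columns, by stage and replicate), coloured by its log2 value minus the gene's mean over all libraries, with colour capped at 2. Rows run from the gene with the lowest mature minus tetrad difference (Cla017591, -1.30) to the highest (Cla023035, 1.16); the row of Cla015218 changes colour within 3 of the 4 stages.

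The pattern was steadiest in 8 genes, which stayed members whichever library was left out: Cla002788, Cla008460, Cla011706, Cla005307, Cla003156, Cla005633, Cla021405 and Cla000742. Cla002788 had 3746, 2163 and 5354 normalised reads in tetrad libraries, 652, 757 and 752 in mononuclear, 1070, 1404 and 932 at the dikaryophase and 4377, 3909 and 3102 in mature libraries. Its lowest end library thus lay above its highest middle library, and mononuclear libraries were the lowest of all. The ratio of its end mean to its middle mean was 4.07. Cla011706 had 234, 262 and 179 normalised reads in tetrad, 47.2, 74.4 and 37.9 in mononuclear, 85.1, 99.9 and 64.1 at the dikaryophase and 337, 300 and 183 in mature libraries. All 6 end libraries exceeded all 6 middle libraries here too, and the ends differed by only 0.25 on the log2 scale. Cla008460 was a gene of few reads, with 128, 181 and 154 normalised reads in tetrad, 34.9, 53.0 and 16.8 in mononuclear, 50.3, 39.2 and 17.2 at the dikaryophase and 136, 86.5 and 68.0 in mature libraries. None of its middle libraries reached 1 CPM, that is 1 read of the gene per 1000000 reads of the library, which stood for 55.3 to 65.6 reads.

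Cla021405 held the narrowest range of dips of these 8 when libraries were left out. It had 594, 791 and 592 normalised reads in tetrad, 128, 261 and 176 in mononuclear, 288, 246 and 272 at the dikaryophase and 651, 550 and 504 in mature libraries. Mononuclear libraries were its lowest, with 1 overlapping the dikaryophase range. Cla003156 averaged 378 ± 53.7 normalised reads in tetrad, 102 ± 30.9 in mononuclear, 101 ± 16.2 at the dikaryophase and 254 ± 110 in mature libraries (SD, n = 3 each). Its middle stages were level, and its mature libraries spread from 156 to 373. Cla005307 averaged 218 ± 52.7, 72.5 ± 34.2, 64.1 ± 32.1 and 175 ± 78.6 normalised reads in the same order of stages (SD, n = 3 each). The overlap in it was between mature replicate 3 (100) and the middle libraries mononuclear replicate 2 (112) and dikaryophase replicate 2 (101). Cla005633 averaged 439 ± 73.7 in tetrad, 168 ± 67.0 in mononuclear, 206 ± 112 at the dikaryophase and 628 ± 57.9 in mature libraries (SD, n = 3 each). Cla000742 averaged 267 ± 33.7, 88.3 ± 29.6, 134 ± 25.3 and 449 ± 54.7 over the same stages (SD, n = 3 each). End and middle libraries did not overlap in Cla005633 or Cla000742.

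**Figure D3:**
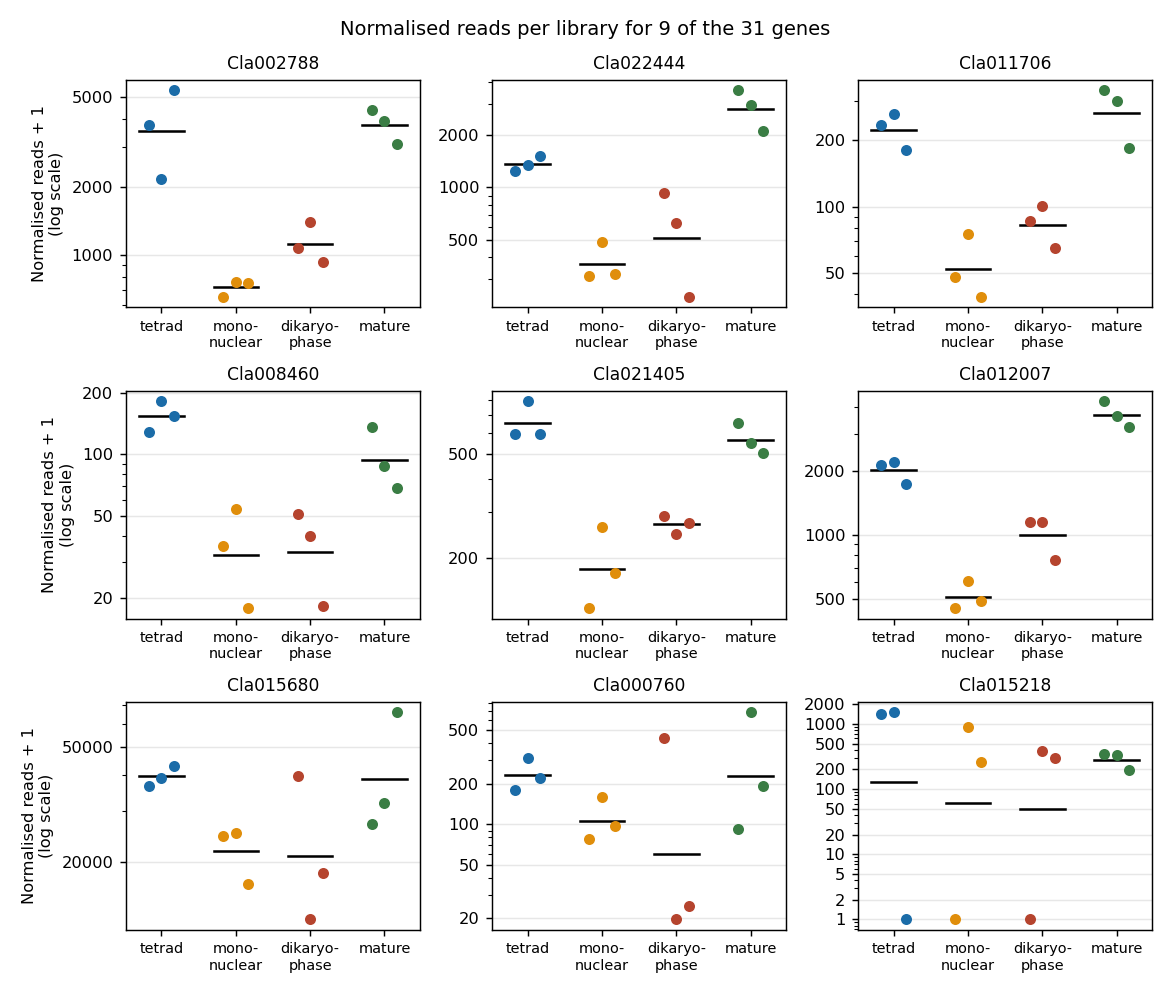
Normalised reads plus 1 (log scales, differing between panels) in each library for 9 members, with 3 points per stage and a black line at the stage mean of the log2 values. The top and middle rows show genes whose end libraries all lie above their middle libraries, and the bottom row shows Cla015680, Cla000760 and Cla015218, whose end and middle libraries overlap.

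The balance between the ends differed among members. In 14 genes the tetrad and mature means lay within 0.5 of each other on the log2 scale, in 8 the mature mean was higher by at least 0.5, and in 9 the tetrad mean was. Cla017591 leaned furthest to the tetrad stage, with a mature minus tetrad difference of -1.30. It averaged 2427 ± 229 normalised reads in tetrad, 556 ± 277 in mononuclear, 543 ± 98.7 at the dikaryophase and 1009 ± 273 in mature libraries (SD, n = 3 each). Its mature libraries (1242, 1078 and 708) all lay below its lowest tetrad library (2208), so its late return was partial in each of them. Mature replicate 3 also lay below mononuclear replicate 2 (844). Cla019075 and Cla021265 had a similar course, with mature minus tetrad differences of -1.03 and -0.97. Cla021265 averaged 3447 ± 281, 1004 ± 373, 718 ± 145 and 1757 ± 51.3 normalised reads from tetrad to mature (SD, n = 3 each), and its end and middle libraries did not overlap. Cla019075 averaged 2029 ± 161, 502 ± 320, 561 ± 169 and 1004 ± 190 (SD, n = 3 each), and its mature replicate 3 (784) lay under its mononuclear replicate 2 (845). The other members with tetrad means higher by at least 0.5 were Cla008700, Cla016054, Cla018748, Cla008460, Cla003156 and Cla014245.

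At the other extreme, Cla023035, Cla015218 and Cla022444 had the highest mature minus tetrad differences, 1.16, 1.13 and 1.05, and the libraries of Cla023035 and Cla015218 are given below with those of other uneven genes. Cla022444 had 1248, 1336 and 1503 normalised reads in tetrad, 314, 489 and 322 in mononuclear, 930, 623 and 237 at the dikaryophase and 3578, 2959 and 2096 in mature libraries. The 3 dikaryophase libraries of this gene spanned a wide range yet stayed below every end library. Cla012007 averaged 2020 ± 244 normalised reads in tetrad, 513 ± 81.8 in mononuclear, 1018 ± 226 at the dikaryophase and 3702 ± 520 in mature libraries (SD, n = 3 each). Its 4 stages did not overlap one another in the libraries. Cla010277, with 951 ± 180, 544 ± 117, 465 ± 46.8 and 1548 ± 191 normalised reads from tetrad to mature (SD, n = 3 each), and Cla015571, described below, were also higher at maturity, by 0.71 and 0.66. Cla000742 and Cla005633 complete the 8.

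Among the members the low point came more often at the mononuclear stage, the first of the middle stages, than at the dikaryophase. The mononuclear mean was the lower in 21 members and the dikaryophase mean in 10, and in 21 of the 31 the difference was under 0.5. It was at least 0.5 with mononuclear lower in 8 members and with dikaryophase lower in 2. The same split over all genes was not worked out. Cla012007, Cla014158 and Cla011706 had the largest dikaryophase minus mononuclear differences, 0.97, 0.84 and 0.67. Cla014158 averaged 3105 ± 501 normalised reads in tetrad, 1029 ± 496 in mononuclear, 1721 ± 484 at the dikaryophase and 4330 ± 518 in mature libraries (SD, n = 3 each). Cla000760, Cla014245 and Cla021265 had the most negative differences, -0.82, -0.76 and -0.44. Cla014245 averaged 5789 ± 415, 2295 ± 796, 1320 ± 276 and 3849 ± 849 normalised reads from tetrad to mature (SD, n = 3 each). In this gene mature replicate 3 (2961) fell short of mononuclear replicate 2 (3122). By combination of highest end and lowest middle stage, 11 members were highest in mature and lowest in mononuclear anthers, 10 highest in tetrad and lowest in mononuclear, 7 highest in tetrad and lowest in dikaryophase, and 3 highest in mature and lowest in dikaryophase anthers. These classes go by the sign of the difference alone. The ends were within 0.25 of each other in 11 members and the middle means in 13, so many placings rest on small differences.

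Gene lengths were not used here, so read numbers order the reads of genes and not their levels. Cla015680 had the most reads of the group, with 36688, 38974 and 43020 normalised reads in tetrad, 24539, 25091 and 16751 in mononuclear, 39700, 12607 and 18212 at the dikaryophase and 27118, 32068 and 65894 in mature libraries. Dikaryophase replicate 1 stood at the level of the tetrad libraries, and mature replicate 3 held the highest value of all, so end and middle libraries overlapped. Cla020807 averaged 17297 ± 5613 normalised reads in tetrad, 7517 ± 4059 in mononuclear, 8147 ± 1391 at the dikaryophase and 16043 ± 7772 in mature libraries (SD, n = 3 each). Its mononuclear replicate 2 (12106) exceeded its tetrad replicate 3 (11769) and its mature replicate 3 (7523). Cla015571 averaged 11405 ± 895, 6668 ± 1000, 6962 ± 2398 and 18417 ± 4732 over the same stages (SD, n = 3 each) and showed no overlap. The members together took 0.184% ± 0.00680 of all reads in tetrad, 0.0769% ± 0.0184 in mononuclear, 0.0929% ± 0.0321 at the dikaryophase and 0.200% ± 0.0113 in mature libraries (SD, n = 3 each). Cla015680, Cla015571 and Cla020807 supplied 56.7% to 76.6% of the members' reads in a library. Without Cla015680 the shares were 0.118% ± 0.0110, 0.0434% ± 0.0137, 0.0539% ± 0.0120 and 0.130% ± 0.0291.

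In several members the stage means stood on libraries that differed widely within a stage. Cla015218 had 1431, 1504 and 0 normalised reads in tetrad, 0, 884 and 259 in mononuclear, 0, 384 and 296 at the dikaryophase and 350, 331 and 193 in mature libraries. Each of the first 3 stages thus held 1 library with no read beside libraries with at least 259, and tetrad replicates 1 and 2 exceeded every other library. Its tetrad mean of raw normalised reads (978) was the highest of the 4 stages but its log2 mean there was not, since a library at 0 weighs more on the log2 scale. Its dip of 1.08 became -0.66 without tetrad replicate 1, -0.69 without tetrad replicate 2, -1.89 without mononuclear replicate 1 and -1.39 without dikaryophase replicate 1. The gene met the rule, but its libraries did not follow a common high, low, high course.

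Cla008700, which had the widest dip, was likewise uneven. It had 106, 159 and 179 normalised reads in tetrad, 9.23, 58.6 and 0 in mononuclear, 0, 44.8 and 9.56 at the dikaryophase and 105, 86.5 and 27.8 in mature libraries. Tetrad libraries were above all middle libraries, whereas mature replicate 3 lay below mononuclear replicate 2 and dikaryophase replicate 2. Its dip fell to 1.38 without mononuclear replicate 3, which had no read, and was 1.55 without dikaryophase replicate 1, which also had none. Cla000760 had 179, 309 and 220 normalised reads in tetrad, 77.0, 158 and 95.7 in mononuclear, 440, 18.7 and 23.9 at the dikaryophase and 91.8, 679 and 191 in mature libraries. Dikaryophase replicate 1 exceeded all tetrad libraries in this gene. Mature replicate 1 lay within the range of the mononuclear libraries, and the other mature libraries lay above that range. Cla023035 had 3657, 3510 and 4126 normalised reads in tetrad, 1380, 1209 and 1320 in mononuclear, 7686, 1205 and 949 at the dikaryophase and 11423, 11188 and 4587 in mature libraries. Dikaryophase replicate 1 again stood at an end level and the other dikaryophase libraries at the mononuclear one, and without replicate 3 of that stage the dip was 0.30.

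Taking all members, every end library lay above every middle library in 18 of 31, against 1.05% of the 17484 genes that reached 1 CPM in 3 or more libraries. Between pairs of stages, tetrad libraries lay wholly above mononuclear libraries in 28 members and above dikaryophase libraries in 25, against 19% and 25% of tested genes. Mature libraries lay wholly above mononuclear libraries in 22 and above dikaryophase libraries in 24, against 21.7% and 15.5%. All 31 members reached that CPM minimum. Cla008700 and Cla008460 had no middle library at 1 CPM and Cla005307 had 2, so these 3 met the minimum only with their end libraries, and 21 members were at 1 CPM or more in each of the 6 middle libraries. Without mononuclear replicate 2, dikaryophase replicate 3 and mature replicate 3 the ends and the middle were apart in 25 of 31, a count that leaving out libraries can keep or raise but not lower. The share of tested genes can also only stay or rise, and it was not worked out without these libraries, so the 25 has no share beside it. Separation from the middle is part of what the rule selects, so these counts describe the members and support nothing further.

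Measured against the spread pooled over all 12 libraries (limma, Benjamini-Hochberg adjusted p below 0.05, log2 fold change of 1 or more in size), the mean of both ends was called higher than the mean of both middle stages in 26 of the 31 members, against 1.94% of the 17484 genes tested. It was also 26 without mononuclear replicate 2, dikaryophase replicate 3 and mature replicate 3. In that setting 432 of all tested genes were called higher, against 340 in the main fit. The other 5 members in the main fit were Cla000760, Cla015218, Cla015680, Cla012755 and Cla022021. For Cla012755, Cla015680 and Cla022021 the log2 fold changes were 0.83 ± 0.11, 0.87 ± 0.28 and 0.91 ± 0.16 (SE), under the fold limit. For Cla000760 and Cla015218 they were 1.53 ± 0.73 and 1.81 ± 2.26, with wide errors. The median over members was 1.54 and that over all tested genes 0.01. By pairs of stages, 20 members were called lower in mononuclear than in tetrad anthers, where 4.02% of tested genes were, and 18 lower in dikaryophase than in tetrad anthers, where 6.75% were. At maturity 19 were called higher than at the mononuclear stage and 14 higher than at the dikaryophase, against 7.68% and 1.93% of tested genes. The rule used each of these contrasts, so nothing is read from the counts.

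All 4 of these calls held for 7 members, Cla002788, Cla011706, Cla022444, Cla003156, Cla005633, Cla021405 and Cla012007, and for 0.0458% of tested genes. That count of members moved with the libraries used, to 2 when dikaryophase replicate 3 was left out, 3 without tetrad replicate 2 and 11 without mononuclear replicate 2. It was 6 without mononuclear replicate 2, dikaryophase replicate 3 and mature replicate 3 together. The share of tested genes with all 4 calls was not worked out in these settings. With all 12 libraries, 1 gene outside the members had all 4 calls, Cla002787. Its ID is next in number to that of Cla002788, and it is named here after its values were seen. It had a dip of 1.37 and missed the rule because its middle means were 1.38 apart. Cla002787 had 688, 359 and 989 normalised reads in tetrad, 72.8, 103 and 105 in mononuclear, 347, 356 and 114 at the dikaryophase and 1599, 1055 and 837 in mature libraries. Both genes had their highest tetrad value in replicate 3 and their lowest in replicate 2. How reads shared by similar genes were assigned is not given in the sources used here, so the pair may not be independent. Over all members, 50 of the IDs next in number had the level of 7, and Cla002787 was the only one of these with a dip of at least 0.75; 12.0% of them had a dip above 0, against 14.1% of all genes at that level.

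The remaining members had dips of 0.76 to 1.03. Cla016054 averaged 313 ± 28.6 normalised reads in tetrad, 61.5 ± 21 in mononuclear, 85.0 ± 35.2 at the dikaryophase and 164 ± 31 in mature libraries (SD, n = 3 each). Cla009779 averaged 237 ± 34.7, 79.0 ± 22.7, 118 ± 43.1 and 231 ± 44.7 from tetrad to mature (SD, n = 3 each). In both, end and middle libraries were apart. Cla012755 was the least variable of the group at the dikaryophase, with 2086 ± 157, 1162 ± 277, 1198 ± 32.6 and 2084 ± 143 normalised reads over the 4 stages (SD, n = 3 each), and its ends were equal within their spread. Cla022021 averaged 3152 ± 306 in tetrad, 1545 ± 346 in mononuclear, 1675 ± 188 at the dikaryophase and 2979 ± 922 in mature libraries (SD, n = 3 each), and its mature replicate 3 (1932) was just above its mononuclear replicate 2 (1929). Cla018748 averaged 3418 ± 428, 1106 ± 507, 837 ± 328 and 1830 ± 474 (SD, n = 3 each), and its mature replicate 3 (1473) lay below its mononuclear replicate 2 (1561). Cla017016 averaged 723 ± 118, 314 ± 125, 428 ± 84.1 and 789 ± 165 over the stages, without overlap. Cla021622 averaged 276 ± 62.5, 156 ± 21.8, 152 ± 89.1 and 315 ± 31.7, and Cla014469 averaged 160 ± 37.9, 73.5 ± 40.6, 94.4 ± 41.1 and 219 ± 24.3 (SD, n = 3 each). In Cla021622 dikaryophase replicate 1 (252) exceeded tetrad replicate 3 (218), and in Cla014469 dikaryophase replicate 2 (139) exceeded tetrad replicate 2 (117).

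Spread within a stage was not read by the rule. Means of widely spread libraries can lie far apart more easily, however, so the members' spread is not independent of how they were chosen. The members' median coefficient of variation was 14.6% in tetrad, 35.7% in mononuclear, 30.1% at the dikaryophase and 22.1% in mature libraries. Counting of reads alone would give medians of 3.17%, 5.36%, 4.53% and 3.14%. On the log2 scale the median within-stage SD of the members was 0.21 in tetrad, 0.51 in mononuclear, 0.41 at the dikaryophase and 0.33 in mature libraries, against 0.12, 0.21, 0.19 and 0.20 over all tested genes. The 4 members with the largest SD in any stage were Cla015218 (6.07, tetrad), Cla008700 (2.96, mononuclear), Cla000760 (2.50, dikaryophase) and Cla023035 (1.65, dikaryophase).

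Much of this spread was shared between members, library by library. Mature replicate 3 lay below the mature stage mean in 28 of the 31 genes, with a median deviation of -0.28, and mature replicate 1 lay above it in 27, with a median of 0.22. Mononuclear replicate 2 was above the stage mean in 26 members, with a median of 0.50, whereas mononuclear replicate 1 was above it in 8, with a median of -0.23. Dikaryophase replicate 3 was above the mean in 7 members, with a median of -0.26. Tetrad replicate 2 was above it in 24, with a median of 0.13, and replicates 1 and 3 in 12 and 10. Over all tested genes the median deviations of the 12 libraries ran from -0.01 to 0.02, and 47.9% to 53.0% of genes were above their stage mean in a library. Mature replicate 3 was therefore nearer to the middle stages in most members, and mononuclear replicate 2 nearer to the ends. The part played by these libraries in the pattern was not tested beyond leaving them out, as follows.

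**Figure D4:**
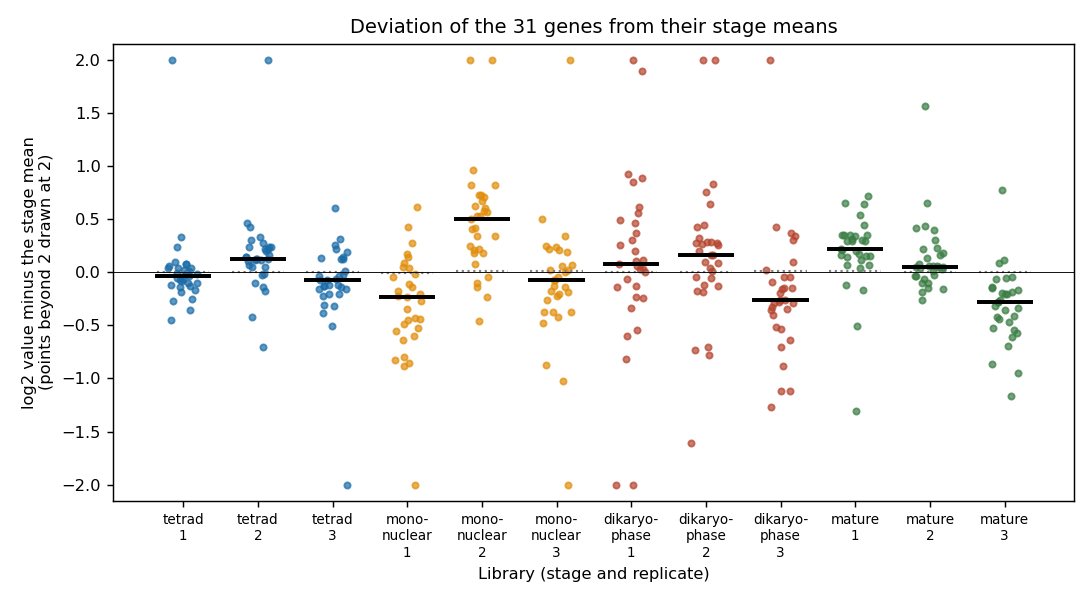
Deviation of each of the 31 genes from its stage mean (log2, points beyond 2 drawn at 2) in each library, with the members' median as a black bar and the median of all 17484 tested genes as a dotted line. The members sit high in mononuclear replicate 2 (median 0.50) and low in dikaryophase replicate 3 (-0.26) and mature replicate 3 (-0.28), while the dotted lines stay near 0.

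With each library left out in turn, the rule chose 25 to 38 genes. It chose 38 without mature replicate 3, of which 29 were among the 31, and 25 without dikaryophase replicate 3, of which 23 were. Without dikaryophase replicate 1 it chose 36, with 12 genes that were not members before. Of the 31, 8 were chosen every time, 20 in 9 to 11 of the 12 cases, and 3 in fewer: Cla017016 in 8, Cla008700 in 7 and Cla015218 in 4. With mononuclear replicate 2, dikaryophase replicate 3 and mature replicate 3 all left out, a choice made after the data were examined, the rule gave 34 genes, 21 of them members. Leaving out a library also gives a value that the rule did not read. An end library that was left out lay above both middle means, and a middle library below both end means, in 329 of 355 such cases over the 12 libraries. It did so by at least 0.75 in 249 of them. The means it was set against were still read by the rule, and the same genes recur among the cases. These counts and the shares of tested genes beside them are therefore descriptions. Per library this held for 29 of 31, 28 of 28 and 29 of 31 genes in tetrad replicates 1, 2 and 3, where 39.3% to 40.1% of all tested genes met the same condition. It held for 26 of 26, 28 of 28 and 26 of 27 in mononuclear replicates, where 25.4% to 30.9% did. In dikaryophase replicates it held for 28 of 36, 29 of 31 and 24 of 25, with 25.9% to 28.8% of tested genes, and in mature replicates for 24 of 26, 27 of 28 and 31 of 38, with 41.5% to 42.2%. The median distance of the left-out library from the nearer mean was 0.58 to 0.78 in dikaryophase replicates 1 and 2, mature replicate 3 and mononuclear replicate 2, and 1.06 to 1.75 in the other 8 libraries.

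**Figure D5:**
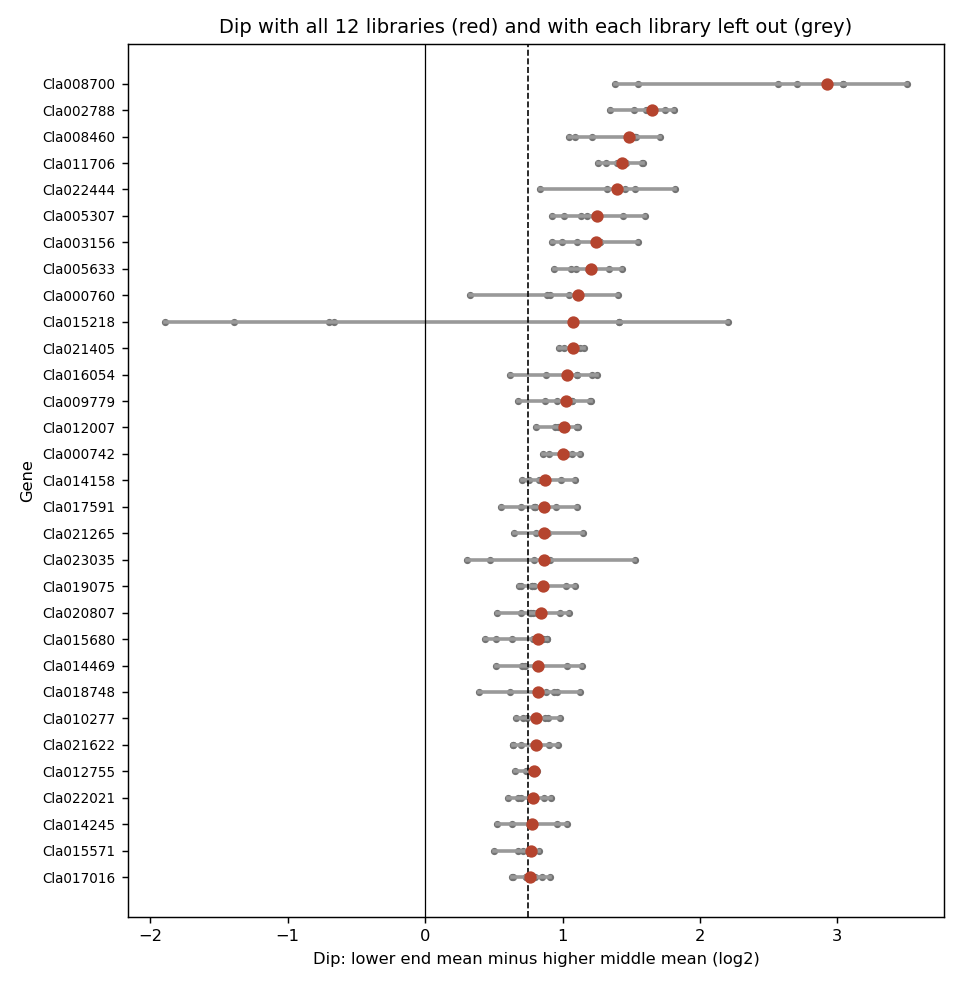
Dip of each member (log2) with all 12 libraries (red) and with each library left out in turn (grey points and range); the dashed line is the limit of 0.75 and the solid line is 0. Cla021405 and Cla012755 have narrow ranges, Cla008700 stays above 1.3 throughout, and Cla015218 runs from -1.89 to over 2.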

How the data were processed

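Anther RNA from 12 libraries was sequenced on an Illumina HiSeq, per the labels' protocols. The deposited table holds log2 values for 23440 genes; for aligner, counter, strand, build and annotation, the sources used here name none. For every library, 2 to the deposited value, less 1 for the pseudocount, fell on whole multiples of 1 step in 100% of values, within 0.01 reads, so reads were recovered: 55347640 to 65554998 per library. Normalised reads are 2 to the value, less 1. The 17484 genes that reached 1 CPM in 3 or more libraries were fitted with limma 3.58.1 (R 4.3.3), a mean per stage and trend-moderated variances, with Benjamini-Hochberg adjustment over all genes of a comparison. The fit was also run on simulated counts with the same spread setting for all genes, so that run does not bear on the calls of single members.

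Named genes were taken by dip, reads, balance of the ends, balance of the middle stages, nearness to the limit, spread and calls. Gene lists and cell type markers fixed by name were not computed. The members, lists and alternatives were chosen with earlier results of these data known. Alternatives covered scaling, filter, pseudocount, limma-voom, a replicate block, thresholds and each library left out.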

Additional observations from a re-analysis of the deposited data

How the results depend on the processing

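The number of members stayed between 21 and 38 under every alternative to the scaling, pseudocount, level limit, ends limit, middle limit, use of medians or single libraries, and moved to 83 with a dip of at least 0.5, 14 with a dip of at least 1 and 18 where every end library also had to exceed every middle library. It was 33 with library size only, 29 of them members, and 36 with stage medians, 20 of them members. Leaving out each library in turn gave 25 to 38. Of 558 recomputed dips, 550 kept their sign and moved by less than the gene's own SD between replicates, pooled over stages. Another 4 kept their sign and moved by more. The 4 that reversed were those of Cla015218 given above (-0.66, -0.69, -1.89 and -1.39). These too moved by less than the SD of that gene, 4.69. Leaving out 1 of 3 libraries seldom moves a stage mean by more than a gene's SD, so the 550 say little on how steady the dips were. Among them, the dip of Cla000760 fell from 1.11 to 0.33 and that of Cla023035 from 0.86 to 0.30. The dip of Cla015218 was 2.72 with mononuclear replicate 2, dikaryophase replicate 3 and mature replicate 3 all left out. The cause was not tested.

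Counts over all genes followed the call rule. With adjusted p alone they were 3150 for mononuclear minus tetrad (1571 as reported), 5323 for dikaryophase minus tetrad (2587), 5996 for mature minus mononuclear (2705), 1918 for mature minus dikaryophase (863) and 2971 for ends minus middle (984). A fold limit of 2 on the log2 scale gave 754, 1376, 1304, 276 and 359, in that order, and mature minus dikaryophase had 512 with an adjusted p under 0.01. With libraries left out in turn, the counts ran from 1349 to 1684, 2373 to 2606, 2466 to 2729, 519 to 1024 and 856 to 1096; the 519 was without dikaryophase replicate 3. With limma-voom 53.1% of the calls for mature minus dikaryophase were higher, against 39.0% as deposited.

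Library size as the only scaling moved the median of all genes by -0.14 at the mononuclear stage relative to tetrad. The share of left-out values on the members' side stayed within 92.0% to 93.3% and the members low in mature replicate 3 within 25 to 28 over the scalings tried. The correlation of same-numbered deviations ran from -0.11 to 0.36 and was over 0.1 in 6 of 18 pairs. It was over 0.1 for all 3 numbers between the mononuclear stage and the dikaryophase (0.11, 0.15 and 0.17). These stages were not compared with each other but were averaged together in ends minus middle. In none of the 4 pairs of stages compared was it over 0.1 for all 3 numbers. The highest, 0.36, was in such a pair, between dikaryophase replicate 3 and mature replicate 3. The main fit did not pair samples by number, and an effect shared by same-numbered libraries was not tested beyond the replicate block. With the replicate block the counts were 1582, 2602, 2713, 919 and 997, and 9 members in place of 7 had all 4 pairwise calls. The share of all tested genes with all 4 calls was not worked out with the block. Cla008700 was a gene of few reads. Its coefficient of variation was 139% in mononuclear and 130% in dikaryophase libraries, where counting of reads alone would give 22.2% and 22.7%. The source of this spread was not tested.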
